A study of Mus musculus with 6 samples.

Results

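The serpins are a superfamily of proteins that share one fold, and most of them block proteases. Each exposes a loop, the reactive centre loop, that a target protease cuts as if it were a substrate. The cut serpin then changes shape and traps the enzyme. A few members, among them maspin (Serpinb5), the collagen chaperone Serpinh1 and the pigment epithelium-derived factor Serpinf1, keep the fold but do not inhibit proteases. Clade letters group the family by descent: clade A holds mainly secreted relatives of antitrypsin and antichymotrypsin, clade B the intracellular serpins, many of them made by keratinocytes, and clade E the inhibitors of plasminogen activators.

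Serpin transcripts were measured in whole mouse skin by RNA sequencing in 6 libraries. They came from 3 mice kept under chronic restraint stress (CRS), in which animals are repeatedly confined, for 12 weeks, and from 3 control mice (CON). The sources used here give no strain, genotype, sex, age or body site, and each library was taken as 1 mouse because the design names 3 mice per group. The members were the protein-coding genes whose symbol starts with Serpin and whose mean over the 6 libraries was at least 0.1 FPKM (fragments per kilobase of exon, scaled to the depth of the library). That gave 44 of the 61 protein-coding Serpin genes in the files, among 28389 genes of all kinds at that level. The choice used the mean level only, so the levels below are a description. Serpinb3d, Serpinb3a and Serpina3f reached the limit through the CRS mice only. Their means were 0.0275, 0.0974 and 0.0896 FPKM in CON against 0.298, 0.197 and 0.112 FPKM in CRS, and the counts below include them. Just inside the limit stood Serpina3f with a mean of 0.1006 FPKM, and just outside it Serpinb3c with 0.0965 FPKM. The 17 protein-coding genes left out were Serpina1a, Serpina1b, Serpina1c, Serpina1d, Serpina1f, Serpina3a, Serpina5, Serpina6, Serpina7, Serpina10, Serpina16, Serpinb1b, Serpinb3c, Serpinb9c, Serpinb9e, Serpine3 and Serpini2. A further 7 Serpin genes were annotated as pseudogenes and are no members, although Serpina3h had a mean of 4.1182 FPKM and Serpinb10, annotated as a polymorphic pseudogene, 1.4962 FPKM.

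Depth was 13290000 to 25727000 fragments per library. The sum of 5 skin keratins was 2005.7 to 3058.5 FPKM, so skin keratins were abundant in all 6 libraries. CON replicate 1 stood apart: mitochondrial genes held 15.3% of its fragments against 2.5% to 4.19% elsewhere, and the summed level of 10 skeletal muscle genes was 11615.5 FPKM against 324.3 to 2710.0 FPKM. It also held Xist at 2.80 FPKM, against 0.0221 to 0.168 FPKM in the other libraries, beside Y-linked Ddx3y at 22.5 FPKM, and whether it came from 1 mouse was not tested. In bulk tissue, fewer cells of a type and less RNA per cell cannot be told apart.

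Many Serpin genes are tandem copies, so how far a fragment can be assigned to one of them bears on many values below. In the GENCODE M21 transcripts, 32 of the 44 members shared at least 1 window of 50 nt with another gene and 14 shared at least 10% of their windows. The share was 78.7% for Serpinb9f, 54.8% for Serpinb9g, 35.7% for Serpina11, 34.6% for Serpina1e and 30.8% for Serpinb9d, and levels of these genes are uncertain. It was 3.13% for Serpina3j, 2.92% for Serpina3b, 0.951% for Serpinb6e and 0.0728% for Serpine2. Not every partner had a Serpin symbol: the shared windows of Serpina11 were all with Gm28577 and those of Serpine2 with Cd40. The copies differ in the reactive centre loop, the part that meets the protease. Its coding sequence (GENCODE M21) is shown for the Serpina3 copies of chromosome 12, aligned to Serpina3n, with capitals for bases that differ from Serpina3n:
Serpina3n: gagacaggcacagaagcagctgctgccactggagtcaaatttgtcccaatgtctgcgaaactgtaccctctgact
Serpina3j: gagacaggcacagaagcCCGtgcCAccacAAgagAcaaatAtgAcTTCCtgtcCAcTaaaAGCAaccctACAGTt
Serpina3b: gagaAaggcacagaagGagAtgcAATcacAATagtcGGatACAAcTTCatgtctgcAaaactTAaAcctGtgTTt
Serpina3c: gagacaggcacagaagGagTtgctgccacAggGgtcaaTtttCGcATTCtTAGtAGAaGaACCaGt
Serpina3m: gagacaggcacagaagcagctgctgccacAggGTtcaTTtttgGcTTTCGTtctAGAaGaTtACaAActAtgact
In Serpina3j 26 of the 75 loop bases differed, which left 65.3% identity against 81.7% over the whole coding sequence. Serpina3b had 66.7% identity in the loop and 78.9% over the whole, Serpina3c 66.7% and 85.9%, and Serpina3m 70.7% and 85.2%. The Serpinb6 copies of chromosome 13 are shown in the same way, with capitals for bases that differ from Serpinb6a or have no counterpart in it:
Serpinb6a: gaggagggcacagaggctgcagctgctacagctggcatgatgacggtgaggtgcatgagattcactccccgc
Serpinb6c: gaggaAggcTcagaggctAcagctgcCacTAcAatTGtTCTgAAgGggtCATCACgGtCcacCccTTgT
Serpinb6d: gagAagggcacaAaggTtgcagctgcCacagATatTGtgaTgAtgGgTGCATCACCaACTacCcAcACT
Serpinb6e: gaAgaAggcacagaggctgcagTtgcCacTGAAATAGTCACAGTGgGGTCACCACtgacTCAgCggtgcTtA
Here the loop of Serpinb6c had 60.9% identity with that of Serpinb6a, against 86.5% over the whole coding sequence. The loop of Serpinb6d had 59.4%, against 80.5% over the whole. Of the loop of Serpinb6e, 57 of 72 bases could be aligned, with 64.9% identity against 78.8% over the whole. In these 3 copies, as in the 4 Serpina3 copies, the loop was less alike than the coding sequence as a whole.

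The promoters of the clade B genes on chromosome 1 shared a further feature that the choice of members did not use. The sequence TGANTCA, which includes the recognition site of AP-1 factors (C or G at its centre), was searched on both strands from 250 bases before to 50 bases after the annotated start (RefSeq, GRCm38.p6). It was found in 6 of the 9 clade B members of chromosome 1 with a promoter entry: Serpinb2, Serpinb5, Serpinb7, Serpinb8, Serpinb11 and Serpinb12. It was found in 0 of 11 clade B members of chromosome 13, 0 of 10 clade A members and 0 of 7 members of other clades. Of all 32851 single promoter entries of that length 7.81% held it, whereas a member counted if any of its entries did. A match describes letters and no binding, and the matches shown have A or T at the centre. Serpinb2 and Serpinb11 are shown because Serpinb2 had an unadjusted p under 0.05 and Serpinb11 had groups that did not overlap, with capitals for TGANTCA and, in Serpinb2, for TATAAA. The windows lie at chr1:107511173-107511472 and chr1:107362064-107362363, both on the plus strand of GRCm38.p6:
Serpinb2: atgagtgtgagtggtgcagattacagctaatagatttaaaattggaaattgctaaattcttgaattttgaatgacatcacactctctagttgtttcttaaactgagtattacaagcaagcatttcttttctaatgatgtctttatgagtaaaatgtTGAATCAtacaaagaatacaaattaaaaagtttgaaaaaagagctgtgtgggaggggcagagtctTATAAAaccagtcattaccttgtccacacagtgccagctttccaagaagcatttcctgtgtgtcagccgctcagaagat
Serpinb11: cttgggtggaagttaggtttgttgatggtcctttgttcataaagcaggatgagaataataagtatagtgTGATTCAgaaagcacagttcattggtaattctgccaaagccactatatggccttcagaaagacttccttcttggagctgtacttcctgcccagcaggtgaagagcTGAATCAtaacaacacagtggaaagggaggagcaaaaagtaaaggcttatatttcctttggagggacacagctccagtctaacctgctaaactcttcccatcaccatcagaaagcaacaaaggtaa

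**Figure D1:**
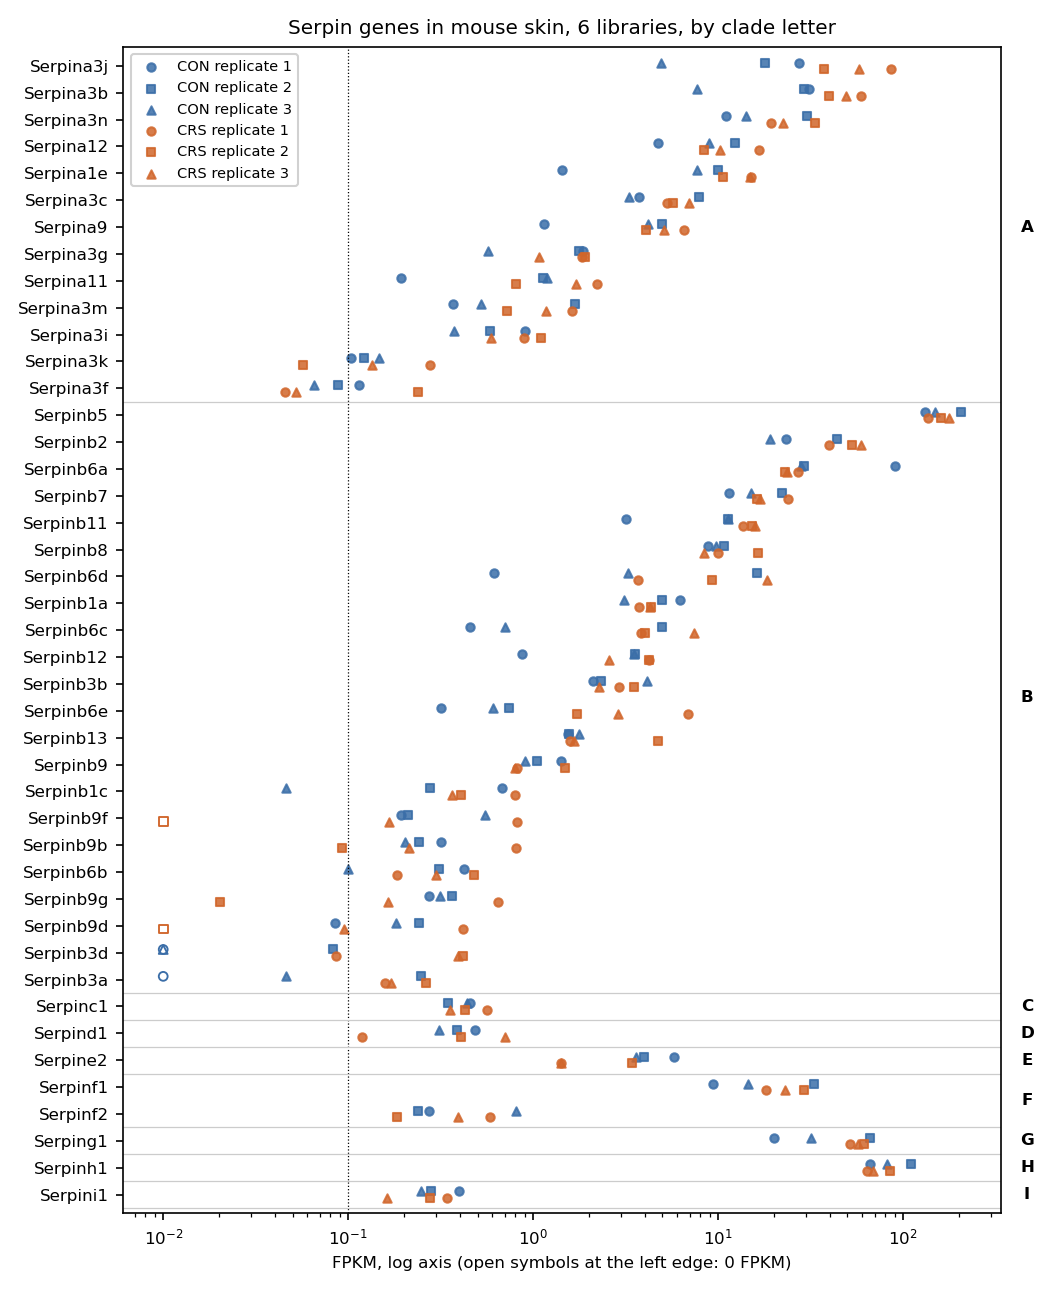
Level of the Serpin members described here (FPKM, log axis) in the 6 libraries, grouped by clade letter, with blue for CON, orange for CRS and 1 symbol shape per replicate number. Open symbols at the left edge stand for 0 FPKM and the dotted line marks the limit of 0.1 FPKM; levels run from 0.101 FPKM for Serpina3f to 159.7 FPKM for Serpinb5, as means of the 6 libraries.

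Levels spanned 3 orders of magnitude: 13 members had a mean of at least 10 FPKM, 28 of at least 1 FPKM and 16 lay between 0.1 and 1 FPKM. The most abundant was maspin, Serpinb5, with a mean of 159.7 FPKM, followed by Serpinh1 with 79.2 FPKM and Serping1 with 47.9 FPKM. Clade B held 51.8% of the summed FPKM of the members with 22 genes, clade A 22.1% with 13 genes and clade H 13.4% with the single gene Serpinh1. Low members rest on few fragments: 19 of the 44 had fewer than 20 fragments in at least 1 library.

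In the skin of CRS mice the 13 serpins of clade A all had a fold change above 0, led by Serpina3j, while Serpine2 of clade E had one below 0 and clade B was mixed. No member passed the adjusted threshold with limma on log2(FPKM + 0.1), where all 44 had an adjusted p of 0.9999, and 0 of all 28389 genes (0.0%) passed. All fold changes below are on that log2 scale, CRS against CON. Of the 44 members, 31 had a log2 fold change above 0, against 32.2% of all genes tested. Their median was 0.33, and that of all genes was -0.20. Under median-ratio scaling, which moves the median of all genes to 0.0, 37 of 44 members were above 0 with a median of 0.56. At an unadjusted p under 0.05, 6 members were higher and 1 was lower, where 0.919% and 1.63% of all genes were. With single libraries left out, 2 members were higher without CON replicate 3 or any 1 CRS replicate, 3 without CON replicate 1 and 11 without CON replicate 2. Of all 28389 genes, 178 were higher without CON replicate 3, 160 without CON replicate 1 and 364 without CON replicate 2. The counts were 158, 707 and 183 without CRS replicates 1, 2 and 3. The lower count of members was 2 without CRS replicate 2, where 4148 of all genes were lower. It was 0 without any other library, where 181 to 1005 of all genes were lower. The groups did not overlap in 8 members, against 6.84% of all genes: in 6 with CRS above CON and in 2 with CRS below CON, against 1.65% and 5.19%. Serpinb3d, which reached the limit through the CRS mice only, was among these 6 and among the 6 higher at an unadjusted p under 0.05. The fold change stood at least 1 above the median of all genes in 11 members, against 5.58% of all genes. Such a count over members chosen with earlier results known is a description.

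The size of this shift depended on the libraries used. The members' median was 0.49 without CON replicate 2 and 0.21 without CON replicate 3. CON replicate 1 was the lowest of the 6 for 18 members (40.9%, against 9.19% of all genes). Without it the members' median was 0.16, with 33 of 44 above 0, and all genes had a median of -0.16. Without CRS replicate 2, where 27.2% of all genes had their lowest value, the members' median was 0.32. With CON replicate 1 and CRS replicate 2 both left out it was 0.17, with 30 above 0. In CRS replicate 3, 25.1% of all genes had their lowest value. Without CRS replicate 3 the median of all genes was -0.09, against -0.20 with all 6 libraries. The high muscle and mitochondrial share of CON replicate 1 moved with the low member values of that library, and its part in the result was not tested.

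**Figure D2:**
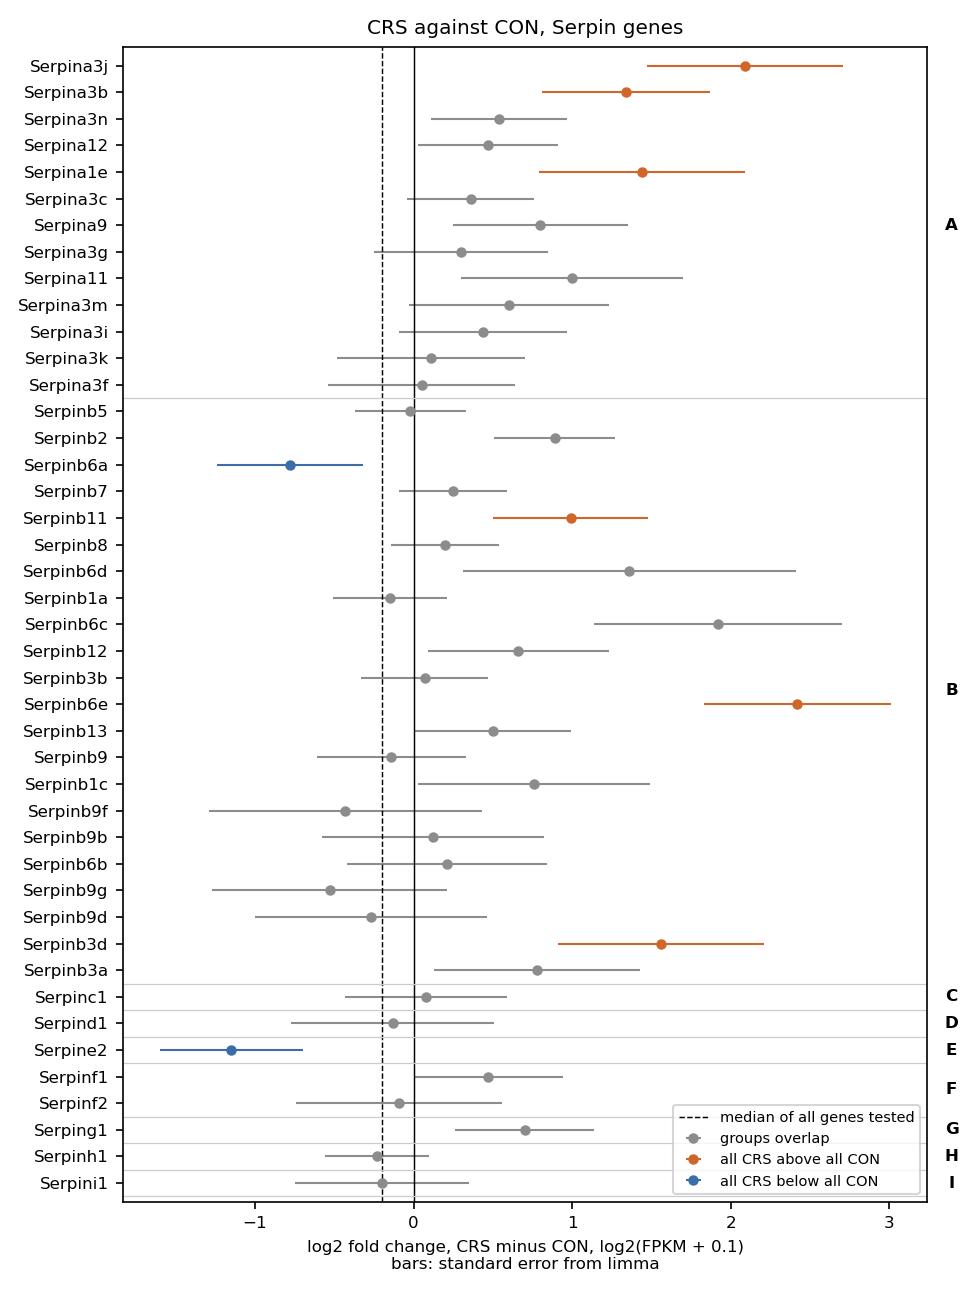
Log2 fold change of the members described here, CRS minus CON, on the log2(FPKM + 0.1) scale, with bars for the limma standard error. Orange marks the 6 members whose CRS values all lay above the CON values, blue the 2 whose CRS values all lay below, and the dashed line the median of all genes at -0.20.

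In clade A, all 13 members had a fold change above 0, with a median of 0.54, and 13 of 13 remained above 0 without CON replicate 1, with a median of 0.23. Serpina3f, which reached the limit through the CRS mice only, is counted here. Without CRS replicate 1 or CRS replicate 2, 12 of 13 were above 0, the exception being Serpina3k or Serpina3f. Without CON replicate 3, Serpina3g went to -0.21 and Serpina3f to -0.04. The summed level of the clade was 83.9, 117.7 and 53.7 FPKM in the CON replicates and 214.7, 144.2 and 171.0 FPKM in the CRS replicates. The 3 CRS sums thus lay above the 3 CON sums, with means of 176.6 ± 35.6 and 85.1 ± 32.0 FPKM (SD, n = 3). Without Serpina3j and Serpina3b the sums were 25.6, 70.7 and 41.1 FPKM for CON replicates 1 to 3 and 69.7, 66.9 and 64.3 FPKM for CRS replicates 1 to 3, and CON replicate 2 was the highest of the 6.

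Serpina3j and Serpina3b, tandem relatives of human antichymotrypsin, had the highest levels of the clade, with means of 38.5 and 36.0 FPKM. Serpina3j stood at 27.2, 17.8 and 4.89 FPKM in the CON mice against 85.9, 37.4 and 57.8 FPKM in the CRS mice, from 140 to 3561 fragments. Every CRS mouse was above every CON mouse, and CON replicate 3 was lowest. The log2 fold change was 2.09 (SE 0.62, unadjusted limma p = 0.00898), or 4.25 times, and the exact permutation p was 0.1, the smallest that 3 against 3 allows. With each library left out in turn it lay between 1.37, without CON replicate 3, and 2.60, without CON replicate 1. Serpina3b stood at 31.1, 29.2 and 7.67 FPKM in the CON mice against 59.1, 39.9 and 48.8 FPKM in the CRS mice. Its groups did not overlap either, and the same library was lowest. The log2 fold change was 1.34 (SE 0.53, unadjusted p = 0.0347) and went to 0.69 without CON replicate 3. In these libraries CON replicate 3 also had the lowest summed level of 7 sebaceous gland genes, 217.8 FPKM, and the part of gland or epidermal content in the result was not tested. The sebaceous sums were 217.8 to 336.3 FPKM in the CON mice against 370.8 to 706.2 FPKM in the CRS mice, and those of 9 interfollicular epidermis genes were 2448.7 to 2966.3 and 3143.6 to 4304.0 FPKM.

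The other 7 Serpina3 genes overlapped between the groups. Serpina3n, an acute-phase inhibitor of leukocyte proteases, stood at 11.0, 30.1 and 14.2 FPKM in the CON mice against 19.2, 33.4 and 22.5 FPKM in the CRS mice. The groups overlapped, with CON replicate 2 close to the highest CRS value, and the log2 fold change was 0.54 (SE 0.43), or 0.23 without CON replicate 1. Serpina3c was at 0.36, Serpina3m at 0.60, Serpina3i at 0.44 and Serpina3g at 0.30. Serpina3g turned to -0.21 without CON replicate 3. Serpina3k and Serpina3f, both with a mean under 0.15 FPKM, were at 0.11 and 0.05.

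Among the clade A genes outside the Serpina3 group, Serpina1e, a copy of antitrypsin, stood at 1.44, 9.96 and 7.68 FPKM in the CON mice against 15.0, 10.6 and 14.8 FPKM in the CRS mice. The groups did not overlap, but CON replicate 2 came close to CRS replicate 2. The log2 fold change was 1.44 (SE 0.65, unadjusted p = 0.0571), or 0.60 without CON replicate 1. With 34.6% of its windows shared, mostly with Serpina1d and Serpina1c, both under 0.1 FPKM, its reading rests on how fragments were assigned. Hepatocytes, the main source of antitrypsin, left little trace: 4 of 7 hepatocyte genes, Ttr, Fgb, Ahsg and Apob, were under 0.1 FPKM, and the 7 together came to 0.711 to 2.55 FPKM. Serpina12, known as vaspin and an inhibitor of the epidermal protease Klk7, stood at 4.73, 12.4 and 8.95 FPKM in the CON mice against 16.7, 8.33 and 10.2 FPKM in the CRS mice, which overlapped. Its log2 fold change was 0.47 (SE 0.44) and 0.10 without CON replicate 1. Serpina9 and Serpina11 were at 0.80 (SE 0.55) and 1.00 (SE 0.70), and at 0.17 and 0.30 without that library.

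**Figure D3:**
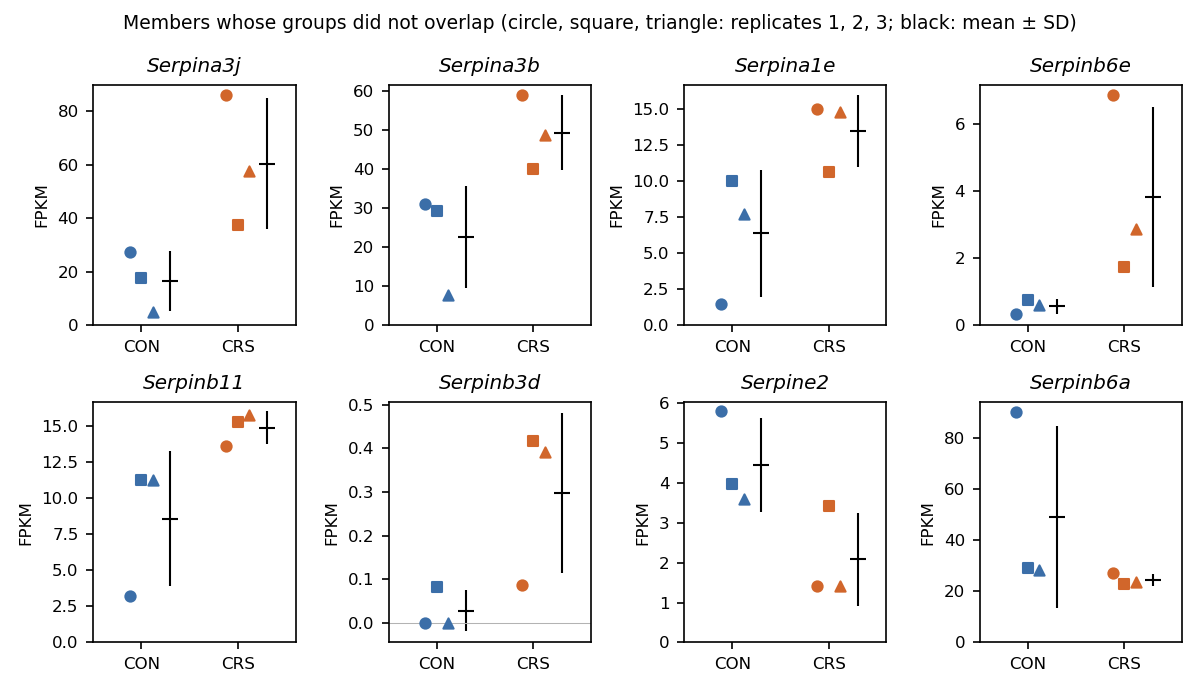
FPKM of the 8 members whose groups did not overlap, with circles, squares and triangles for replicates 1, 2 and 3 and black marks for the mean ± SD of 3 libraries. In Serpina3j the CRS values run from 37.4 to 85.9 FPKM and the CON values from 4.89 to 27.2 FPKM, while in Serpinb6a a single CON library at 90.5 FPKM sets the CON mean.

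Clade B was mixed. Of its 22 members 15 had a fold change above 0, with a median of 0.23, and its summed level overlapped between the groups, 298.3 ± 55.2 FPKM in the CON mice against 314.6 ± 31.3 FPKM in the CRS mice (SD, n = 3). The 10 genes of chromosome 1, a cluster active in stratified epithelia, had a median of 0.58 with 9 above 0. The 9 include Serpinb3a and Serpinb3d, which reached the limit through the CRS mice only. Without CON replicate 1 the median was 0.26 with 8 above 0, and without CON replicate 1 and CRS replicate 2 it was 0.05 with 5 above 0. The 12 genes of chromosome 13 had a median of -0.01 with 6 above 0, and the difference between the clusters was not tested.

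On chromosome 1, maspin, Serpinb5, stood at 131.1, 204.8 and 149.1 FPKM in the CON mice against 135.4, 160.8 and 177.1 FPKM in the CRS mice. The ranges overlapped fully and the log2 fold change was -0.02 (SE 0.35), or 0.22 under median-ratio scaling. Serpinb2, the plasminogen activator inhibitor of keratinocytes and macrophages, stood at 23.3, 43.9 and 19.1 FPKM in the CON mice against 39.7, 52.9 and 59.2 FPKM in the CRS mice. Only CON replicate 2 reached the CRS range. Its log2 fold change was 0.89 (SE 0.38, unadjusted p = 0.0472, exact permutation p = 0.2), and it lay between 0.64 and 1.24 with each library left out. Of its windows 10.4% were shared with Serpinb10. Serpinb11 stood at 3.19, 11.3 and 11.3 FPKM in the CON mice against 13.6, 15.3 and 15.8 FPKM in the CRS mice. The groups did not overlap, and the log2 fold change of 0.99 (SE 0.49, unadjusted p = 0.0772) was 0.39 without CON replicate 1. The sum of 8 activated keratinocyte genes overlapped between groups, at 897.7 to 1478.9 FPKM in the CON mice against 1380.9 to 1702.3 FPKM in the CRS mice. All 8 were above 0, against 32.2% of all genes. In 2 of them CRS lay above CON without overlap, against 1.65% of all genes.

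The genes Serpinb7, Serpinb8, Serpinb12 and Serpinb13 of that cluster overlapped between the groups. Serpinb7, whose loss in people causes a palmoplantar keratosis, reached a log2 fold change of 0.25 (SE 0.34). Serpinb8, an inhibitor of furin, was at 0.20 (SE 0.34) and turned to -0.08 without CRS replicate 2. Serpinb13, an inhibitor of the cathepsins L and K, stood at 4.72 FPKM in CRS replicate 2 and at 1.55 to 1.76 FPKM in the other 5 libraries. Its log2 fold change of 0.50 (SE 0.49) was 0.00 without that mouse. Serpinb12 was at 0.66 (SE 0.57) and at 0.03 without CON replicate 1.

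The Serpinb3 copies, relatives of the human squamous cell carcinoma antigens that inhibit cathepsins, were low in this skin. Serpinb3b stood at 2.10, 2.32 and 4.10 FPKM in the CON mice against 2.90, 3.52 and 2.28 FPKM in the CRS mice, with a log2 fold change of 0.07 (SE 0.40). Serpinb3a was at 0, 0.246 and 0.0461 FPKM in the CON mice against 0.159, 0.262 and 0.170 FPKM in the CRS mice, which overlapped. Serpinb3d was listed at 0 in 2 CON libraries and at 0.0825 FPKM in the other, against 0.0855, 0.416 and 0.392 FPKM in the CRS mice. Its groups did not overlap, but CON replicate 2 and CRS replicate 1 each held 2 fragments. The fitted log2 change moved from 1.56 to 2.75 with limma voom on recovered fragments, so no fold is given.

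On chromosome 13 the Serpinb6 copies differed in direction. Serpinb6e stood at 0.319, 0.739 and 0.604 FPKM in the CON mice against 6.86, 1.72 and 2.87 FPKM in the CRS mice, from 9 to 197 fragments. Each CRS mouse was above each CON mouse, and CRS replicate 1 was highest. The log2 fold change of 2.42 (SE 0.59, unadjusted p = 0.00304, exact permutation p = 0.1), or 5.33 times, had the lowest p of the 44 members. It lay at 1.89 without CRS replicate 1 and 2.86 without CRS replicate 2. Serpinb6c stood at 0.456, 4.94 and 0.703 FPKM in the CON mice against 3.81, 4.02 and 7.42 FPKM in the CRS mice. There CON replicate 2 lay inside the CRS range, and the log2 fold change was 1.92 (SE 0.78, unadjusted p = 0.0385), or 1.30 without CON replicate 1 and up to 2.89 with another library left out. Serpinb6d had the same 2 lowest libraries among the controls, at 0.615, 16.2 and 3.24 FPKM in the CON mice against 3.70, 9.30 and 18.4 FPKM in the CRS mice, with a log2 fold change of 1.36 (SE 1.05), or 0.24 without CON replicate 1. Both genes were lowest in CON replicate 1 and highest in CRS replicate 3, as was the sum of 8 hair shaft genes, at 1628.0, 5290.7 and 3360.7 FPKM in the CON mice against 5162.0, 5931.2 and 9665.0 FPKM in the CRS mice. Of these 8 genes 7 were above 0, against 32.2% of all genes, and the part of hair shaft content in the result was not tested.

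Serpinb6a, the broadly expressed inhibitor of cathepsin G, ran the other way, at 90.5, 29.2 and 28.2 FPKM in the CON mice against 27.1, 22.9 and 23.6 FPKM in the CRS mice. The groups did not overlap, but 1 library held most of the difference. Its log2 fold change was -0.78 (SE 0.46, unadjusted p = 0.13), and -0.23 without CON replicate 1. That library also held the highest muscle and mitochondrial levels, and their part in the value was not tested. Serpinb1a, an inhibitor of neutrophil elastase, was at -0.15 (SE 0.36), and Serpinb9, the inhibitor of granzyme B, at -0.14 (SE 0.47). The copies Serpinb9d, Serpinb9f and Serpinb9g were at -0.27, -0.43 and -0.53, each highest in CRS replicate 1 and lowest in CRS replicate 2. These 3 turned to 0.29, 0.34 and 0.10 without CRS replicate 2. The low copies Serpinb1c, Serpinb6b and Serpinb9b, with means under 0.5 FPKM, were at 0.76 (SE 0.73), 0.21 (SE 0.63) and 0.12 (SE 0.70).

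**Figure D4:**
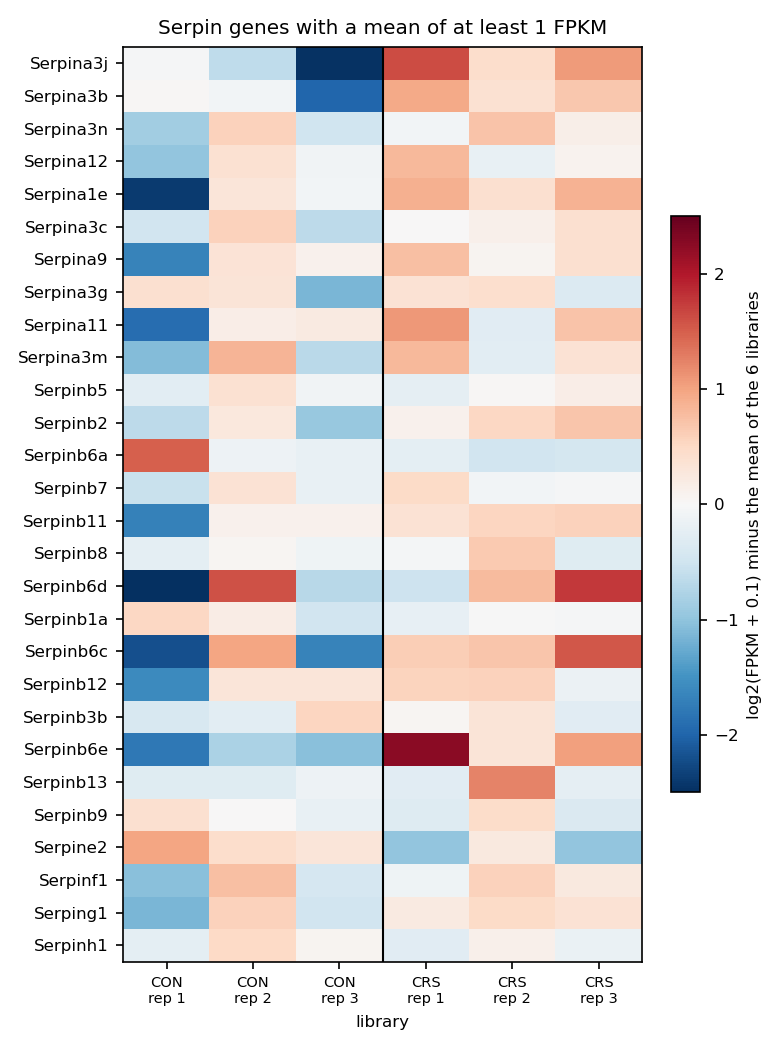
Deviation of log2(FPKM + 0.1) from the mean of the 6 libraries for the 28 members with a mean of at least 1 FPKM, red above and blue below, with CON left and CRS right of the line. CON replicate 1 is below the mean for 22 of the 28 and above it for Serpinb6a and Serpine2, while CRS replicates 1 and 3 are blue for Serpine2.

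Clade E holds inhibitors of the plasminogen activators urokinase and tissue activator. Its member Serpine2, protease nexin, which also blocks thrombin, stood at 5.80, 3.97 and 3.60 FPKM in the CON mice against 1.42, 3.43 and 1.41 FPKM in the CRS mice. The groups did not overlap, although CRS replicate 2 was close to CON replicate 3. The log2 fold change was -1.15 (SE 0.45, unadjusted p = 0.0319, exact permutation p = 0.1), a CON level 2.22 times that of CRS. It lay between -1.56 and -0.94 with each library left out and at -0.92 under median-ratio scaling. The sum of 7 endothelial genes had the same order of libraries within each group, at 43.6, 17.4 and 16.3 FPKM in the CON mice against 9.95, 31.9 and 9.68 FPKM in the CRS mice, with 6 of 7 genes below 0. The sum of 8 proliferation genes was 133.4 to 162.0 FPKM in the CON mice against 71.7 to 106.6 FPKM in the CRS mice, without overlap and with 8 of 8 below 0. Of all 28389 genes 19257 were below 0. The part of endothelial or proliferation genes in the result was not tested. The plasminogen activation list held the clotting genes F3, F10 and Thbd beside Plau, Plat, Plaur and Klkb1. Of these 7 measured genes 0 were above 0, where 32.2% of all genes were. Their median was -0.34, which is -0.15 relative to all genes, and 2 of the 7 lay above the median of all genes and above 0 under median-ratio scaling. Urokinase, Plau, stood at 14.6, 11.1 and 12.1 FPKM in the CON mice against 4.79, 15.4 and 5.26 FPKM in the CRS mice, and its receptor Plaur reached a log2 fold change of -0.47 (SE 0.35).

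The members of the other clades overlapped between groups. Serpinf1, an antiangiogenic factor of fibroblasts, stood at 9.33, 33.0 and 14.5 FPKM in the CON mice against 18.1, 29.0 and 23.0 FPKM in the CRS mice, a log2 fold change of 0.47 (SE 0.47), or 0.07 without CON replicate 1. Serping1, the C1 inhibitor of complement, stood at 19.95, 65.8 and 31.6 FPKM in the CON mice against 51.5, 61.7 and 56.7 FPKM in the CRS mice. Its log2 fold change of 0.70 (SE 0.44) was 0.31 without CON replicate 1. Both genes had their lowest value in CON replicate 1 and their highest in CON replicate 2, as did the sum of 9 dermal fibroblast genes, with 293.0 and 1438.3 FPKM. The list of complement proteases, which the C1 inhibitor blocks, also held the clotting factor gene F12. Of its 5 measured genes 3 were above 0, F12 among them, against 32.2% of all genes, with a median of 0.09. C1ra was at 0.21 (SE 0.45) and C1s1 at -0.11 (SE 0.46).

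Serpinh1, the chaperone that binds procollagen in the endoplasmic reticulum, stood at 65.8, 110.1 and 82.0 FPKM in the CON mice against 63.6, 84.5 and 69.1 FPKM in the CRS mice. The log2 fold change was -0.23 (SE 0.33), close to the median of all genes and 0.01 under median-ratio scaling. Of 14 collagen clients and folding enzymes 7 were above 0, against 32.2% of all genes, and 3 without CON replicate 1. The prolyl hydroxylase P4ha1 was at -0.71 (SE 0.34) and the lysyl hydroxylase Plod2 at -0.73 (SE 0.42). Inhibitors of clotting were low in this skin. Antithrombin, Serpinc1, stood at 0.458, 0.346 and 0.440 FPKM in the CON mice against 0.560, 0.428 and 0.357 FPKM in the CRS mice, a log2 fold change of 0.08 (SE 0.51). Heparin cofactor, Serpind1, stood at 0.483, 0.389 and 0.309 FPKM in the CON mice against 0.119, 0.408 and 0.706 FPKM in the CRS mice, at -0.13 (SE 0.64). Serpinf2, the inhibitor of plasmin, was at -0.09 (SE 0.65). Neuroserpin, Serpini1, stood at 0.399, 0.282 and 0.248 FPKM in the CON mice against 0.343, 0.277 and 0.163 FPKM in the CRS mice, at -0.20 (SE 0.55).

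Of the protease lists, the epidermal, cathepsin and leukocyte ones lay mostly above 0, as the members did. The plasminogen activation list, with its receptor and clotting genes, had 0 of 7 genes above 0. The complement list, with F12, had 3 of 5. Of all genes tested 32.2% were above 0, and their median was -0.20. Among epidermal serine proteases 13 of 14 genes were above 0, with a median of 0.60. At an unadjusted p under 0.05, 3 of them were higher, against 0.919% of all genes. In 3 of them CRS lay above CON without overlap, against 1.65% of all genes. Both counts include Klk12, which reached the limit of 0.1 FPKM through the CRS mice only. Its means were 0.063 FPKM in CON and 0.393 FPKM in CRS. Klk10 reached a log2 fold change of 1.83 (SE 0.58) and Klk6 of 1.35 (SE 0.39). Among the cathepsins and Lgmn 10 of 11 genes were above 0 (median 0.32), with Ctsl at 1.02 (SE 0.53) and Ctsh at 0.78 (SE 0.53). The gene below 0 was Lgmn, at -0.16 (SE 0.37). Without CON replicate 1, 6 of these 11 genes were above 0 and their median was 0.11, and the epidermal proteases were at 0.21. Among leukocyte serine proteases 7 of 10 were above 0 (median 0.41), with the mast cell protease Cpa3, a carboxypeptidase, at 0.91 (SE 0.52) and Ctsg at 0.93 (SE 0.60), the latter from at most 8 fragments per library. Ctsg also reached the limit through the CRS mice only, with a CON mean of 0.0405 FPKM. Without CON replicate 1 the median of this list was 0.04. Other inhibitor families had 10 of 12 genes above 0 (median 0.35), with cystatin Cst6 at 1.77 (SE 0.60) and Spint2 at -0.44 (SE 0.29). Their median was -0.02 without CON replicate 1, with 6 of 12 above 0.

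**Figure D5:**
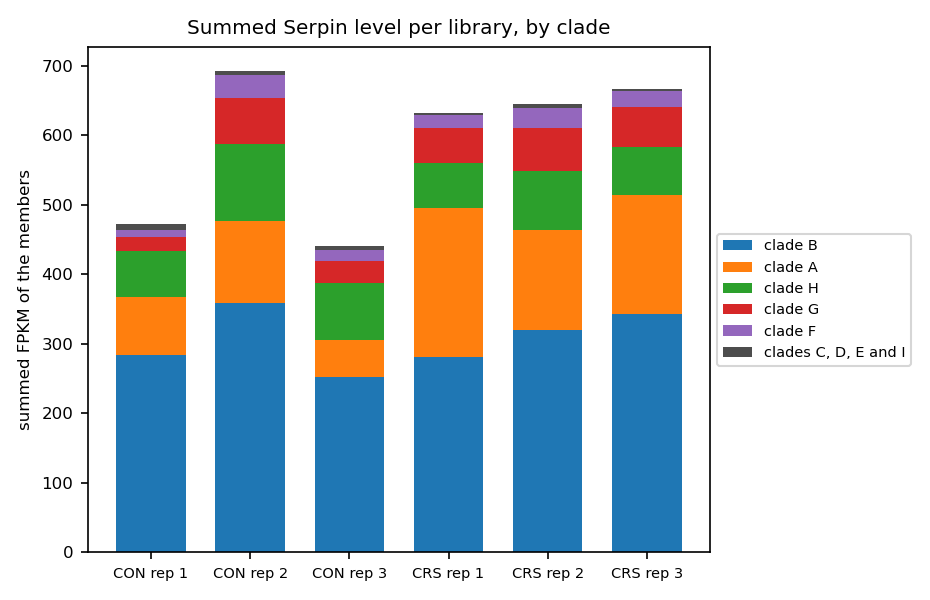
Summed FPKM of the members in each library, stacked by clade letter from 0. The total is 439.8 to 692.2 FPKM in the CON mice against 632.3 to 666.2 FPKM in the CRS mice, and the clade A part is larger in each CRS library than in any CON library.

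The summed level of all members was 534.7 ± 137.3 FPKM in the CON mice against 647.9 ± 17.1 FPKM in the CRS mice (SD, n = 3), which overlapped, CON replicate 2 being the highest of the 6. Within the family the library pattern was not uniform: of the members above 0 in every library, 14 varied at least 5 times between their lowest and highest library, whereas Serpinb5 and Serpinh1 varied by 1.56 and 1.73 times.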

How the data were processed

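Skin of CRS and CON mice was sequenced from total RNA in 3 libraries per group, per the labels, which do not say which mouse gave which library. The authors deposited FPKM values, 1 file per library with 54146 Ensembl IDs. HISAT2 and the build GRCm39 are named in the submitters' processing notes; the sources used here do not give the counting program, annotation, strand or versions. Symbols, types and exon lengths came from GENCODE M21 (GRCm38), which matched 54079 IDs. FPKM times exon length fell on whole fragments within 0.05 for 98.1% to 98.3% of values up to 100 fragments, which gave depths of 13290000 to 25727000 fragments.

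The 28389 genes averaging 0.1 FPKM or more were tested as log2(FPKM + 0.1) with limma 3.58.1 (R 4.3.3), mean-variance trend, two-sided, Benjamini-Hochberg over all genes, threshold 0.05. Fold changes on this scale understate low genes. The fit was tested on simulated data. Exact two-sided permutation tests of 3 against 3 cannot go below 0.1. P-values measure the spread between these libraries. Values in all 6 libraries were given for members without overlap or with an unadjusted p under 0.05, the highest member of each clade and members of well known role, and fold changes for the 2 lowest-p genes of each pathway list. Members and lists were chosen with earlier results of these data known. The 15 alternatives are in the closing section. Loop and promoter sequences came from GENCODE M21 transcripts and from RefSeq (GRCm38.p6), where 37 of 44 members had a promoter. The individual values of 1 member are not reported here; it stays in the counts over members.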

Additional observations from a re-analysis of the deposited data

How the results depend on the processing

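No alternative called a member: the count past the adjusted threshold was 0 of 44 members and 0 of all genes tested under each of the 15 alternatives, limma voom on recovered fragments included, while an unadjusted p under 0.05 was reached by 261 genes upward and 462 downward as reported. That balance turned to 421 upward and 184 downward under median-ratio scaling, and was 707 and 4148 without CRS replicate 2. The smallest adjusted p of any gene was 0.192, without CRS replicate 2. The members' median of 0.33 was 0.56 under median-ratio scaling. Direction held under all alternatives for 23 members and turned under at least 1 for 21. Under median-ratio scaling Serpinb1a went to 0.08, Serpinb5 to 0.22, Serpinb9 to 0.08, Serpind1 to 0.07, Serpinf2 to 0.11 and Serpinh1 to 0.01. Serpina3f went to -0.04 with a pseudocount of 0.01 and to -0.07 with voom, and Serpinb9b to -0.08 with voom. Without both CON replicate 1 and CRS replicate 2, Serpina3f went to -0.25, Serpinb12 to -0.09, Serpinb13 to -0.03, Serpinb1a to 0.03, Serpinb3b to -0.26, Serpinb8 to -0.16, Serpinb9d to 0.04, Serpinb9f to 0.14, Serpinb9g to 0.02, Serpinf1 to -0.10 and Serpinf2 to 0.07. Over these omissions Serpinb5 reached -0.17 and Serpinb9b 0.73 without both, Serpinb12 0.98 and Serpinf1 0.97 without CON replicate 2, and Serpinb13 0.76 without CRS replicate 1. With each library left out in turn the members' median ran from 0.16 to 0.49, Serpina3f from -0.34 to 0.26, Serpina3g from -0.21 to 0.56, Serpina3k from -0.22 to 0.42, Serpinb1a from -0.42 to 0.06, Serpinb3b from -0.11 to 0.36, Serpinb5 from -0.16 to 0.16, Serpinb6b from -0.20 to 0.49, Serpinb8 from -0.08 to 0.40, Serpinb9 from -0.41 to 0.02, Serpinb9b from -0.51 to 0.61, Serpinb9d from -0.90 to 0.29, Serpinb9f from -1.26 to 0.34, Serpinb9g from -1.22 to 0.10, Serpinc1 from -0.06 to 0.20, Serpind1 from -0.55 to 0.39, Serpinf2 from -0.38 to 0.36 and Serpini1 from -0.36 to 0.01. Deviations of same-numbered libraries from their group means had correlations of -0.121, 0.0622 and 0.0869. Those of differently numbered libraries ran from -0.292 to 0.301. With 3 libraries per group, these values cannot decide whether the numbers pair mice. With the replicate block 0 genes passed, and an unadjusted p under 0.05 was reached by 5 members upward and 0 downward, against 6 and 1 without it. Of all genes tested, 256 upward and 370 downward reached it with the block. Low members are limited by depth: 19 had fewer than 20 fragments in a library.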

Other observations

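Of the 7 Serpin pseudogenes, 3 had a mean of at least 0.1 FPKM. Serpina3h stood at 8.85, 3.57 and 1.10 FPKM in CON replicates 1 to 3 and at 4.06, 4.64 and 2.49 FPKM in CRS replicates 1 to 3, and Serpina3g and Serpina3i share 8.89% and 9.82% of their windows with it. Serpina3e-ps stood at 0.258, 0.735 and 0.490 FPKM in CON and at 1.36, 1.17 and 1.39 FPKM in CRS. Serpinb10 stood at 3.18, 1.38 and 0.819 FPKM in CON and at 1.50, 1.16 and 0.932 FPKM in CRS. Serpina3h and Serpinb10 had their highest value in CON replicate 1, and the groups did not overlap in Serpina3e-ps, for which no test is given.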
